A study of Mus musculus with 6 samples.

Results

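The 37 genes described here are interferon-stimulated antiviral genes, taken by symbol from a list of transcripts known to be induced by interferons. The list was chosen with earlier results of these data known, and all 37 were found among the 50385 genes of the count table. They were followed in hearts of male Mdx/Utrn dKO mice, which carry mutations in the dystrophin gene (the mdx allele) and in the gene of its relative utrophin and are used as a model of Duchenne muscular dystrophy. In 3 libraries the mice had received setanaxib, which inhibits the hydrogen peroxide-producing enzyme Nox4, by oral gavage at 60 mg/kg/day for 12 weeks. In the other 3 libraries the mice had received corn oil, the vehicle, for the same 12 weeks. All mice were 2 to 3 months old when dosing began and all share the genotype, so the comparison is drug against vehicle within dystrophic hearts, and wild-type hearts were not analysed here. The labels number the libraries but do not state that each is a separate animal, so the p-values below rest on a spread among 6 libraries that may be technical.

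Interferons are secreted when a cell senses foreign or misplaced nucleic acid, and type I interferons signal through the receptor chains Ifnar1 and Ifnar2 and the kinases Jak1 and Tyk2. The kinases activate STAT proteins, among them Stat2, which joins Irf9 in the complex ISGF3 that binds the interferon-stimulated response element (ISRE) in the promoters of antiviral genes. Interferon gamma acts through a different element, the gamma-activated site (GAS), and induces genes such as Irf1. The products degrade viral RNA, block its translation, tag proteins with the ubiquitin-like protein Isg15, or trap and inhibit virus particles. In uninfected tissue many of these genes are transcribed at a low tonic level, in resident immune cells as well as in parenchymal cells.

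The promoters of several of the genes carry the element by which the family is known, and those that best show it are printed here. RefSeq promoter windows on GRCm38.p6, from 250 bases before to 50 bases after a transcription start, were matched for 28 of the 37 genes in 35 windows. The ISRE core was searched as GAAA and GAAA separated by any 2 bases, and the GAS as TTCNNNGAA, on both strands, with overlapping matches counted. Capitals mark matches to the ISRE core, which read TTTC, 2 bases and TTTC where the element lies on the other strand, and each sequence runs 5′ to 3′ along the gene's own strand. The Isg15 window, chr4:156200769-156201068 on the minus strand, holds 3 overlapping cores that begin at -78, -72 and -66 from the start. The Ifit1 window, chr19:34640639-34640938 on the plus strand, holds 2 separate cores at -104 and -85. The Rsad2 window, chr12:26456403-26456702 on the minus strand, holds 1 core at -120. The stretches of Ifit3, chr19:34583343-34583446, and Ifit3b, chr19:34607739-34607842, both on the plus strand, are 104 bases long and match at 104 of 104 positions.
Isg15: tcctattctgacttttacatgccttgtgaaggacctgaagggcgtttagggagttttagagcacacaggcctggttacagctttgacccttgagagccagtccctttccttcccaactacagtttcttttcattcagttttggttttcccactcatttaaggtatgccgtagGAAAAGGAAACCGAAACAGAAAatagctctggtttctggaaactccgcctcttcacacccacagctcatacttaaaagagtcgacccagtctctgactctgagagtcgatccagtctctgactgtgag
Ifit1: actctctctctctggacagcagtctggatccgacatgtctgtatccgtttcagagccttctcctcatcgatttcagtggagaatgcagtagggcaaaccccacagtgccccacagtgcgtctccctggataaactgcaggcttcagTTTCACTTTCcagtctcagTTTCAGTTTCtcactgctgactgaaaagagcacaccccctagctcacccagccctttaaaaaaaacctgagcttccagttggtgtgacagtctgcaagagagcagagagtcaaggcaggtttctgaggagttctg
Rsad2: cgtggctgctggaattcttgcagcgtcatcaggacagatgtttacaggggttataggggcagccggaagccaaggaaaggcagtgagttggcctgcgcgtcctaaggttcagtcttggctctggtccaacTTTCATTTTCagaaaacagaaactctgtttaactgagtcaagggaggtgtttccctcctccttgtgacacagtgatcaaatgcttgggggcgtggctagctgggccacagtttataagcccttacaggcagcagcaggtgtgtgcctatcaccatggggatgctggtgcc
Ifit3: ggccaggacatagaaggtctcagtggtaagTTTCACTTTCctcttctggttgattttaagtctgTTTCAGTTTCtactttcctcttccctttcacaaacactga
Ifit3b: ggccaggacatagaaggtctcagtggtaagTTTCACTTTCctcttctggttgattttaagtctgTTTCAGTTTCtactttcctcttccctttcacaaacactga

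The Irf1 window, chr11:53769764-53770063 on the plus strand, is shown for contrast because its match is to the GAS, in capitals, and it holds no ISRE core.
Irf1: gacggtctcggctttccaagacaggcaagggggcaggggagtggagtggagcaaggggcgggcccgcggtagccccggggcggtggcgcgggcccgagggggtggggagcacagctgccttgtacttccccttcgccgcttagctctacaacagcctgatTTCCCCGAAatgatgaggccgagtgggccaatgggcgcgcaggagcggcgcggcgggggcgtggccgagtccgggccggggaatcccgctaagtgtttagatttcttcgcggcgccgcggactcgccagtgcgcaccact

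An ISRE core was present in a window of 12 of the 28 matched genes, 42.9%, beside 3.99% of the 27025 genes in the whole promoter table. Counted by window, the shares were 37.1% of 35 and 3.44% of 32851. The 12 genes were Bst2, Eif2ak2, Ifih1, Ifit1, Ifit3, Ifit3b, Isg15, Oas1a, Oas3, Rsad2, Stat2 and Trim30a, and 6 of them had more than 1 core in a window. A GAS match was present in 7 of the 28 genes (Adar, Bst2, Eif2ak2, Ifi35, Ifit2, Irf1 and Oas1a), 25%, beside 9.55% of all genes. Such matches are a description of these letters in these windows, and a window without one says nothing about binding elsewhere. The windows that matched are drawn in the plot of motif positions.

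**Figure D1:**
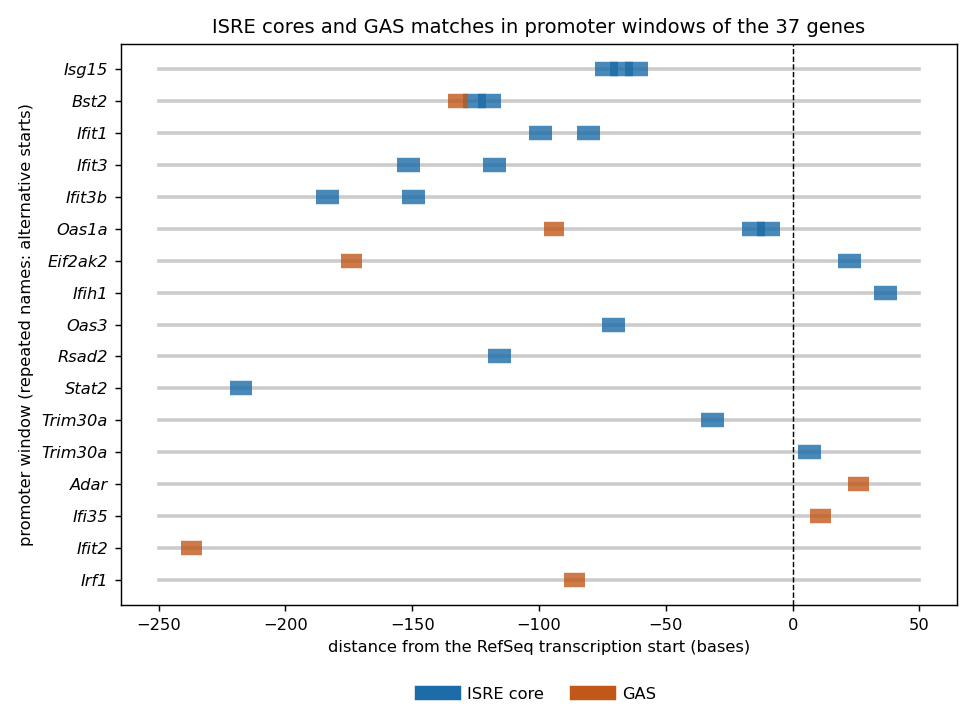
Positions of ISRE cores (blue) and GAS matches (orange) in the promoter windows that hold at least 1, with the distance from the RefSeq transcription start in bases on the x axis and 1 grey line per window. The 3 cores of Isg15 overlap, those of Ifit1, Ifit3 and Ifit3b are separate, and most cores lie upstream of the start.

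Across the 37 genes the setanaxib hearts had lower levels in almost every case, by small amounts. The log2 fold change, setanaxib minus vehicle, was below 0 for 36 of 37 genes, beside 48.4% of the 20472 genes tested, and Ifi27l2a was the exception, with 0.26 in edgeR and -0.070 in limma-voom. The median log2 fold change over the 37 was -0.48, beside 0.01 over all genes tested. Levels are given in CPM, which corrects estimated counts for the depth of each library. Those of the 2 groups did not overlap for 22 of the 37, with all 3 setanaxib libraries below all 3 vehicle libraries in each case, beside 9.46% of all genes tested. In whole-heart RNA, fewer cells of a type and less RNA per cell cannot be told apart.

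No single gene of the 37 passed edgeR's quasi-likelihood test with Benjamini-Hochberg adjustment over all genes, where the lowest adjusted p among them was 0.234 and 0.00488% of all genes passed in either direction. At an unadjusted p under 0.05 that test listed 15 of the 37, all lower with setanaxib, beside 4.69% of all genes listed as lower. DESeq2 called 5 of the 37 lower at an adjusted p under 0.05 (Herc6, Isg15, Mx1, Parp9 and Rsad2), beside 1.45% of all genes called lower, and listed 19 as lower at an unadjusted p under 0.05, beside 5.36% of all genes. limma-voom called 0 of the 37 and listed 18 as lower at an unadjusted p under 0.05, beside 6.02% of all genes. In place of 15 genes, edgeR's test listed 6 without vehicle replicate 2, 9 without vehicle replicate 1 and 8 with scaling by total counts only, beside 2.7%, 3.1% and 3.47% of all genes. DESeq2 called 1 of the 37, Mx1, without vehicle replicate 1 and again without vehicle replicate 2, and 3 without vehicle replicate 3, beside 0.808%, 0.766% and 1.02% of all genes called lower.

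Mx1 passed the filter on low counts through its vehicle libraries alone, so the counts were also taken without it. Then 35 of 36 genes were lower, 21 did not overlap and DESeq2 called 4, beside 48.4%, 9.46% and 1.45% of all genes. Leaving out in addition the 4 genes that share the most sequence with other genes left 31 of 32 lower, 19 without overlap and a median log2 fold change of -0.45. The 2 groups also differed in how their libraries stood one by one. Vehicle replicate 2 held the highest level of 28 of the 37 genes, and the median gene lay 0.19 above the vehicle mean there on the log2 scale, against -0.04 and -0.13 in vehicle replicates 1 and 3. In setanaxib replicates 1, 2 and 3 the median gene lay at -0.62, -0.43 and -0.36 from the vehicle mean. Setanaxib replicate 1 was below the whole vehicle range for 33 of the 37 genes and above it for 0, where 37.5% of all genes were below and 33.5% above. For setanaxib replicate 2 the counts were 31 below and 0 above, beside 29% of all genes on either side. Setanaxib replicate 3 had 27 below and 3 above, namely Irf1, Oasl2 and Ifi27l2a, beside 33.9% and 37.4% of all genes. Every setanaxib library thus stood on the low side for most of the genes, with replicate 3 the most mixed. Without setanaxib replicate 3, which also stood apart in atrial and lung transcripts, 37 of 37 genes were lower, beside 50.5% of all genes, and 27 did not overlap, beside 18% of all genes. In that setting edgeR's test listed 17 at an unadjusted p under 0.05, beside 7.91% of all genes. DESeq2 called 9, beside 4.08% of all genes called lower. Mx1 and Oas3 were among these 9, and both were listed at 0 in setanaxib replicates 1 and 2. The shares over all genes were also higher in that setting than with all 6 libraries.

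**Figure D2:**
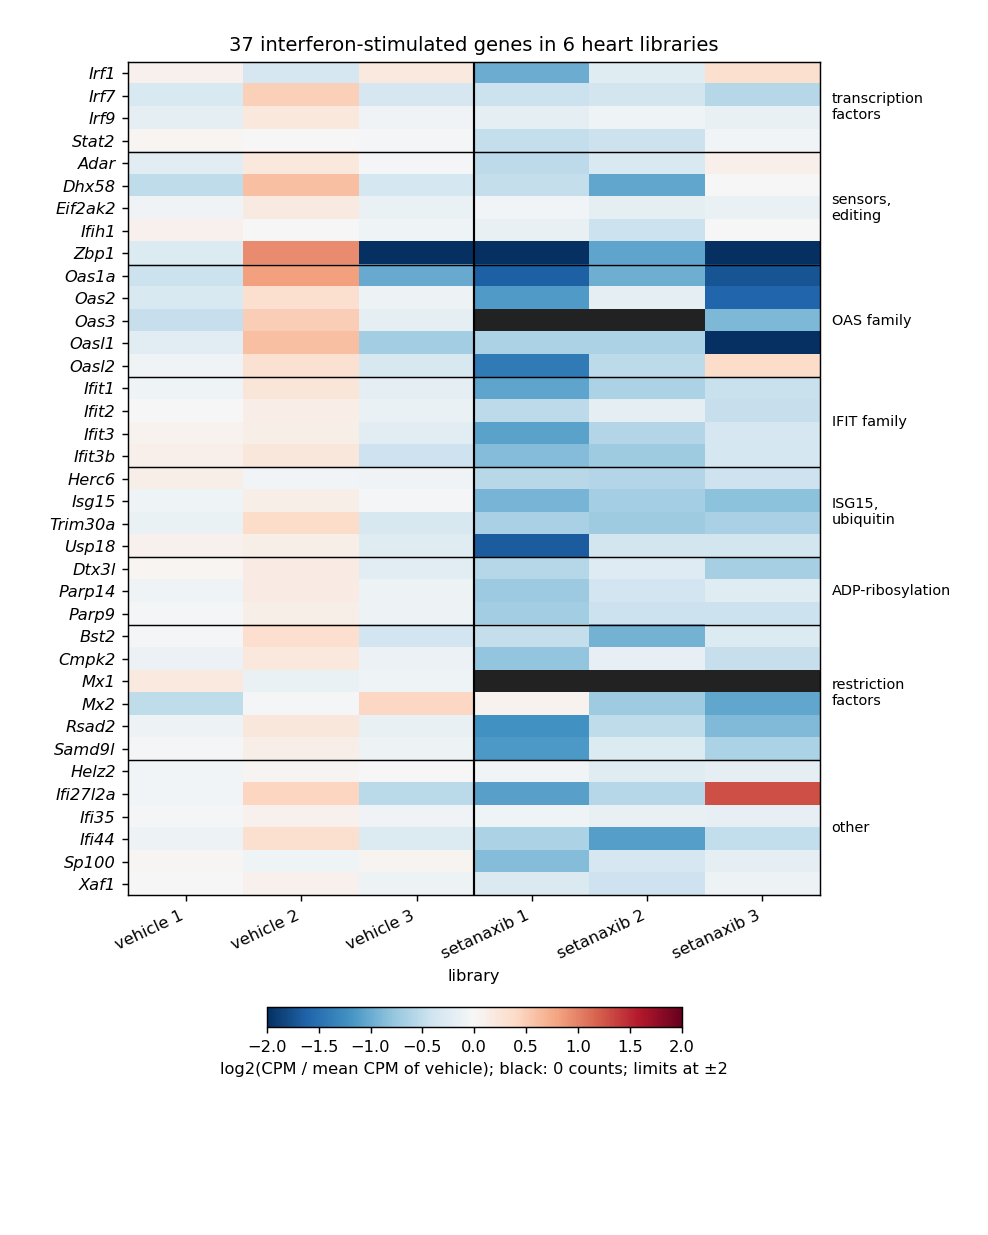
Level of each of the 37 genes (rows, by role) in each library (columns) as log2 of CPM over the vehicle mean CPM, blue below and red above, black where the library has 0 counts. The setanaxib columns are mostly blue, vehicle replicate 2 is the reddest column, and Ifi27l2a is red in setanaxib replicate 3.

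Most macrophage, monocyte and fibroblast markers were lower with setanaxib as well. Of 17 macrophage markers, 15 were lower with setanaxib, all 15 without overlap. Among these, 13 were at an unadjusted p under 0.05 in edgeR's test, and DESeq2 called 7. Over all genes, 9.46% were lower without overlap, 4.69% were lower at that p and DESeq2 called 1.45% lower. The summed level of the 17 was 450.9 to 582.2 CPM with vehicle and 295.3 to 353.8 CPM with setanaxib. Adgre1, which encodes the macrophage antigen F4/80, measured 15.0, 21.4 and 14.8 CPM in the vehicle libraries against 8.26, 11.1 and 9.74 CPM after setanaxib. All 8 tested markers of monocytes and dendritic cells were lower, with summed levels of 38.46 to 47.5 CPM and 21.17 to 33.55 CPM. Siglech, the defining plasmacytoid dendritic cell marker, was at 0 in 4 of 6 libraries, and 6 of 12 T and NK cell markers, Cd3e and Nkg7 among them, were at 0 in all 6. Cd8a, a marker of cytotoxic T cells and the T and NK cell marker of lowest p, was listed at 0 in the 3 vehicle libraries and at 0.346, 0.312 and 0.395 CPM with setanaxib. Cd8a was not called by edgeR (adjusted p = 0.234) but was called higher by DESeq2, a direction opposite to that of the antiviral genes. It passed the filter on low counts through its setanaxib libraries alone, and an exact 0 among estimated counts can be a failed estimate. The 12 markers together summed to 0.783 to 1.47 CPM with vehicle and 0.944 to 2.98 CPM with setanaxib. Of 6 B and plasma cell markers Ms4a1 was at 0 in all 6 libraries, Cd79b was above 0 in all 6, and the sums were 0.973 to 2.96 CPM with vehicle and 0.409 to 5.06 CPM with setanaxib. Fibroblast markers were lower too, 9 of 10 of them, with a median log2 fold change of -0.42, 5 without overlap and 5 at an unadjusted p under 0.05 in edgeR's test, and DESeq2 called 3 (Pi16, Col3a1 and Col1a2). Their summed level overlapped, at 1851 to 2605 CPM with vehicle and 1521 to 2784 CPM with setanaxib. Among 10 cardiomyocyte markers 5 were lower and 5 higher, with a median log2 fold change of 0.01 and overlapping sums. Atrial and airway transcripts were highest in setanaxib replicate 3, where the atrial myocyte markers summed to 3129 CPM, against at most 589.1 CPM with vehicle. The lung markers summed to 606.1 CPM there, against at most 19.84 CPM with vehicle, and Scgb1a1 alone made up 597.8 CPM of that sum. Ager, another lung marker, was highest in setanaxib replicate 1, at 1.53 CPM. The part of these markers in the result for the antiviral genes was not tested.

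The 4 transcription factors were all lower on average, 2 of them without overlap between groups, beside 9.46% of all genes tested. Stat2, the ISGF3 subunit specific to type I and type III interferon signalling, stood at 18.5, 17.9 and 17.8 CPM under vehicle and 12.9, 13.4 and 17.3 CPM under setanaxib. The groups did not overlap, although setanaxib replicate 3 came close to the vehicle libraries, and the log2 fold change was -0.31 (SE 0.14). Irf7, which amplifies interferon alpha expression, measured 5.72, 9.84 and 5.59 CPM in the vehicle libraries against 5.24, 5.44 and 4.73 CPM after setanaxib. Its log2 fold change of -0.46 (SE 0.25) was -0.14 without vehicle replicate 2, the library in which it was high. Irf9, the DNA-contacting subunit of ISGF3, averaged 11.5 ± 1.63 CPM under vehicle and 10.4 ± 0.425 CPM under setanaxib (SD, n = 3), and these groups overlapped. Irf1, the factor whose promoter holds the GAS shown above, ranged from 9.08 to 13.1 CPM with vehicle and from 5.77 to 14.4 CPM with setanaxib. That spread spanned the whole vehicle range, and its log2 fold change of -0.21 (SE 0.34) became 0.064 without setanaxib replicate 1.

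The 5 sensors and RNA-editing genes were all lower on average, and for none did the groups separate. Ifih1 encodes MDA5, a sensor of long double-stranded RNA, and averaged 11.2 ± 0.655 CPM under vehicle and 9.86 ± 1.47 CPM under setanaxib (SD, n = 3). Eif2ak2, the kinase PKR that halts translation when it binds double-stranded RNA, was at 10.6 ± 1.27 and 9.75 ± 0.477 CPM. Adar, which edits adenosine to inosine in double-stranded RNA, was at 27.2 ± 4.03 and 23.3 ± 5.23 CPM. The log2 fold changes were -0.18 (SE 0.14) for Ifih1, -0.12 (SE 0.13) for Eif2ak2 and -0.22 (SE 0.19) for Adar. Dhx58 encodes LGP2, a regulator of RNA sensing, and its log2 fold change of -0.45 (SE 0.41) was -0.01 without vehicle replicate 2. Zbp1, a sensor of Z-form nucleic acid that can start necroptosis, stood at 0.940, 2.20 and 0.287 CPM under vehicle and 0.228, 0.548 and 0.250 CPM under setanaxib. The groups overlapped, and its log2 fold change of -1.74 (SE 0.78) was -0.84 without vehicle replicate 2.

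These genes belong to the oligoadenylate synthetase (OAS) family, whose active enzymes make the second messenger that activates RNase L. Members of the family also have other antiviral roles. All 5 were lower on average with a median log2 fold change of -0.96, but spread between libraries was wide. Oas1a measured 1.83, 4.37 and 1.23 CPM in the vehicle libraries against 0.802, 1.26 and 0.751 CPM after setanaxib. Vehicle replicate 2 stood far above the rest and setanaxib replicate 2 reached into the vehicle range, and the log2 fold change of -1.40 (SE 0.52) was -0.70 without that vehicle library. Oas3 was at 0.849, 1.65 and 1.02 CPM with vehicle, which rest on 103, 241 and 139 estimated counts, and was listed at 0, 0 and 0.630 CPM with setanaxib. The third setanaxib library held 83 estimated counts, the fitted log2 fold change of -2.48 (SE 1.72) is imprecise, and edgeR's adjusted p was 0.765. Oas2 stood at 8.08, 12.4 and 9.28 CPM under vehicle and 4.55, 8.78 and 3.32 CPM under setanaxib. Only setanaxib replicate 2 lay within the vehicle range, and the log2 fold change was -0.84 (SE 0.38). Oasl1, a repressor of Irf7 translation, had a log2 fold change of -0.96 (SE 0.51) with overlapping groups. Oasl2, its neighbour in the genome, ranged from 7.89 to 12.2 CPM with vehicle and from 3.70 to 12.7 CPM with setanaxib, with the highest value in setanaxib replicate 3.

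The 4 IFIT genes encode tetratricopeptide-repeat proteins that bind viral RNA and the translation machinery, and they lie in 1 cluster. All 4 were lower at an unadjusted p under 0.05 in edgeR's test, beside 4.69% of all genes, with log2 fold changes between -0.69 and -0.38. Ifit1, which recognises RNA caps that lack ribose methylation, measured 4.07, 5.07 and 3.76 CPM in the vehicle libraries against 2.07, 2.77 and 3.17 CPM after setanaxib. The groups did not overlap, and the log2 fold change was -0.69 (SE 0.22, edgeR's adjusted p = 0.490). Ifit2 stood at 8.74, 9.62 and 8.05 CPM under vehicle and 6.13, 7.72 and 6.43 CPM under setanaxib. The groups did not overlap, and its difference was the smallest of the 4, at a log2 fold change of -0.38 (SE 0.14). Ifit3 measured 5.65, 5.82 and 4.58 CPM in the vehicle libraries against 2.55, 3.55 and 4.22 CPM after setanaxib. Its near copy Ifit3b stood at 3.04, 3.34 and 2.14 CPM under vehicle and 1.56, 1.73 and 2.23 CPM under setanaxib. Vehicle replicate 3 was the lowest vehicle library for both and setanaxib replicate 3 the highest setanaxib library, and for Ifit3b these crossed. The log2 fold changes were -0.64 (SE 0.22) for Ifit3 and -0.63 (SE 0.25) for Ifit3b. Ifit3 shares 31.7% and Ifit3b 27.4% of its exonic 100-base windows with the other, so reads may have been divided between them, and the summed counts gave -0.63.

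Isg15 is a ubiquitin-like protein that is conjugated to other proteins during the interferon response, Herc6 is the ligase that attaches it in mice, and Usp18 removes it and also dampens receptor signalling. Isg15 measured 1.40, 1.62 and 1.46 CPM in the vehicle libraries against 0.786, 0.935 and 0.842 CPM after setanaxib. The 2 groups were compact and well apart, with means of 1.49 ± 0.1103 and 0.855 ± 0.0754 CPM (SD, n = 3). The log2 fold change was -0.80 (SE 0.21, edgeR's adjusted p = 0.413), and DESeq2's adjusted p was 0.0332. Without vehicle replicate 2, edgeR's adjusted p for Isg15 rose to 0.982. Over all alternative fits the log2 fold change of Isg15 stayed between -0.87 and -0.74. Herc6 stood at 5.74, 5.09 and 5.02 CPM under vehicle and 3.59, 3.51 and 3.95 CPM under setanaxib. Its groups were separated by more than the spread within either, at a log2 fold change of -0.52 (SE 0.14, edgeR's adjusted p = 0.416). DESeq2's adjusted p for Herc6 was 0.0174, and edgeR's rose to 0.981 without vehicle replicate 1. The log2 fold change of Herc6 stayed between -0.57 and -0.46 over all alternative fits. Usp18 measured 3.16, 3.23 and 2.52 CPM in the vehicle libraries against 0.936, 2.30 and 2.30 CPM after setanaxib. Setanaxib replicate 1 was the lowest by far, and the log2 fold change of -0.69 had an SE of 0.37. Trim30a, a tripartite-motif protein that restrains Toll-like receptor signalling, stood at 6.28, 8.87 and 5.52 CPM under vehicle and 4.40, 4.22 and 4.40 CPM under setanaxib. The setanaxib libraries were nearly equal while vehicle replicate 2 stood above its group, and the log2 fold change was -0.67 (SE 0.20, edgeR's adjusted p = 0.464).

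**Figure D3:**
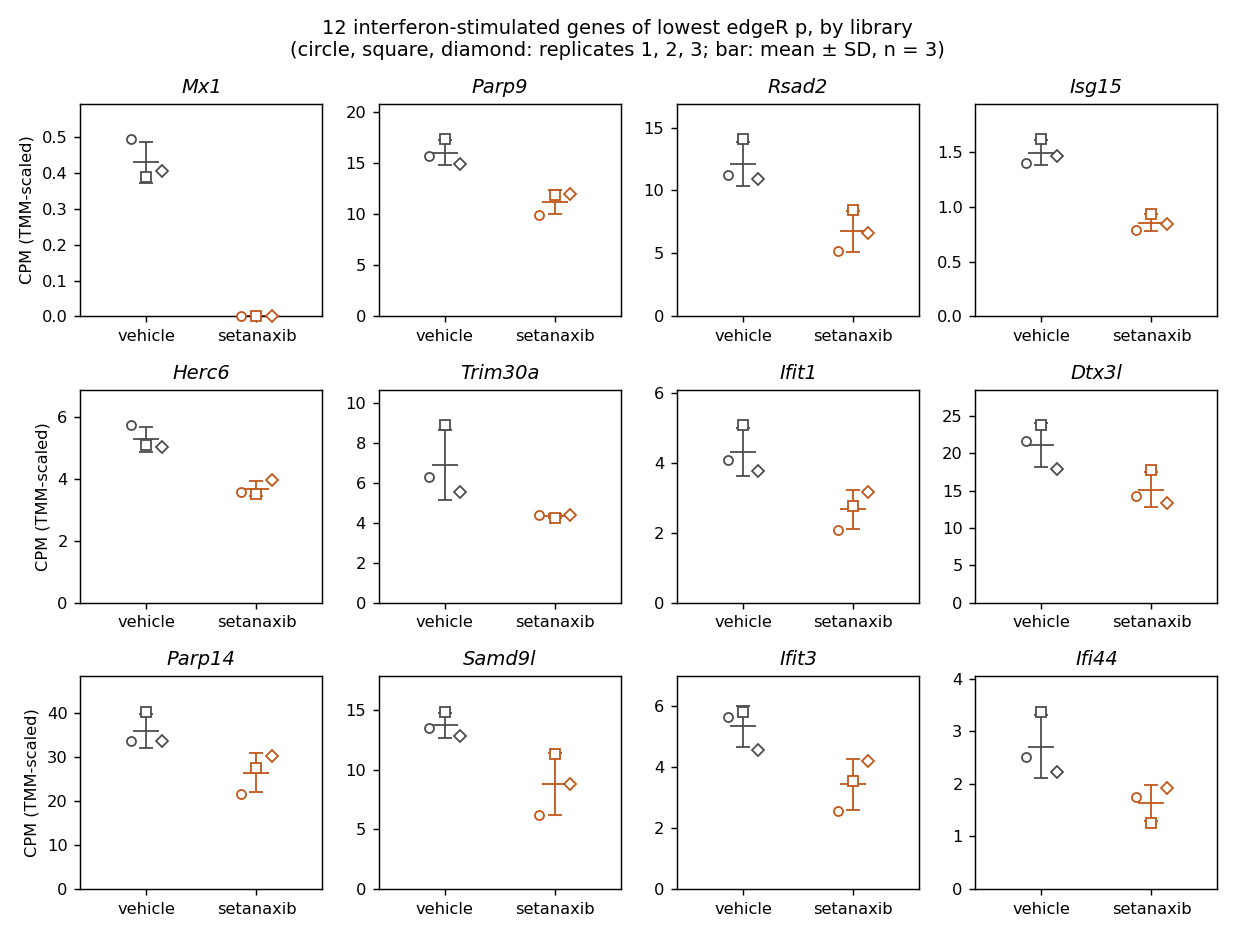
Level in CPM (y axis, from 0, scaled per gene) of the 12 genes of lowest edgeR p in the 3 vehicle and 3 setanaxib libraries, with circles, squares and diamonds for replicates 1, 2 and 3 and bars for the mean ± SD (n = 3). In all 12 panels the setanaxib points lie below the vehicle points, and Mx1 is at 0 in the 3 setanaxib libraries.

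The 3 ADP-ribosylation genes are neighbours in the genome, Parp14 next to Dtx3l and Dtx3l next to Parp9. Parp9 and Dtx3l form a complex in which the ubiquitin ligase Dtx3l acts with Parp9 on histones and viral proteins. Parp9 measured 15.7, 17.4 and 15.0 CPM in the vehicle libraries against 9.91, 11.9 and 12.0 CPM after setanaxib. These groups stood clearly apart, at 16.03 ± 1.23 and 11.2 ± 1.16 CPM (SD, n = 3). The log2 fold change was -0.51 (SE 0.12, edgeR's adjusted p = 0.383), and DESeq2's adjusted p was 0.00935. Without vehicle replicate 2, edgeR's adjusted p for Parp9 rose to 0.906. Over all alternative fits the log2 fold change of Parp9 stayed between -0.56 and -0.43. Dtx3l stood at 21.6, 23.7 and 17.9 CPM under vehicle and 14.3, 17.7 and 13.3 CPM under setanaxib. Vehicle replicate 3 and setanaxib replicate 2 almost met, and the log2 fold change was -0.48 (SE 0.16, edgeR's adjusted p = 0.495). The exons of Parp9 and Dtx3l overlap on opposite strands, over 9.4% and 8% of their exonic bases, so some reads may have been counted for both or for neither. Parp14, a mono-ADP-ribosyltransferase, measured 33.7, 40.2 and 33.6 CPM in the vehicle libraries against 21.6, 27.5 and 30.1 CPM after setanaxib. All 3 setanaxib libraries were below all 3 vehicle libraries, at a log2 fold change of -0.44 (SE 0.15, edgeR's adjusted p = 0.512).

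Restriction factors act directly on viruses, and all 6 were lower on average. Mx1, a dynamin-like GTPase that traps viral nucleocapsids and is defective in many laboratory strains, was at 0.494, 0.390 and 0.404 CPM with vehicle, which rest on 60, 57 and 55 estimated counts, and was listed at 0 in all 3 setanaxib libraries. Against a floor of 3 counts over the setanaxib group it was at least 55.9-fold lower, with counting error the sole basis of that bound. An exact 0 among estimated counts can be a failed estimate, and edgeR's adjusted p for Mx1 was 0.234. DESeq2's adjusted p for Mx1 was 3.43e-06, and edgeR's rose to 0.787 without vehicle replicate 1. Mx2, its relative, is annotated as a polymorphic pseudogene in the reference mouse, and at 0.986 ± 0.309 and 0.706 ± 0.294 CPM (SD, n = 3) its groups overlapped. Rsad2, which encodes viperin and makes a chain-terminating nucleotide, stood at 11.2, 14.1 and 10.9 CPM under vehicle and 5.21, 8.49 and 6.59 CPM under setanaxib. The groups did not overlap, at a log2 fold change of -0.84 (SE 0.21, edgeR's adjusted p = 0.396). DESeq2's adjusted p for Rsad2 was 0.0239, and edgeR's rose to 0.963 without vehicle replicate 2. The log2 fold change of Rsad2 ranged from -1.04 to -0.69 over all alternative fits. Its neighbour Cmpk2, a nucleotide kinase, was at 6.30 ± 0.871 and 4.61 ± 0.971 CPM (SD, n = 3) without overlap, at a log2 fold change of -0.45 (SE 0.20). Samd9l, which restricts poxviruses, measured 13.5, 14.9 and 12.8 CPM in the vehicle libraries against 6.20, 11.3 and 8.84 CPM after setanaxib. The setanaxib libraries varied more than the vehicle libraries but stayed below them, at a log2 fold change of -0.64 (SE 0.23). Bst2, the tetherin that holds budding virions at the cell surface, was at 4.50 ± 1.11 and 3.10 ± 0.716 CPM (SD, n = 3) with overlapping groups.

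Of the other 6 interferon-stimulated genes 5 were lower without overlap, beside 9.46% of all genes tested. Ifi44 stood at 2.51, 3.37 and 2.23 CPM under vehicle and 1.75, 1.26 and 1.92 CPM under setanaxib. Its difference was the largest of the 6, at a log2 fold change of -0.72 (SE 0.26, edgeR's adjusted p = 0.530). Sp100, a component of nuclear PML bodies, measured 23.7, 22.1 and 24.4 CPM in the vehicle libraries against 12.8, 18.5 and 20.7 CPM after setanaxib. The vehicle libraries were close together and the setanaxib libraries ranged widely below them, at a log2 fold change of -0.43 (SE 0.18). Xaf1, a pro-apoptotic binding partner of XIAP, had a log2 fold change of -0.27 (SE 0.13). Helz2, a helicase and nuclear receptor coactivator, and Ifi35 differed least of the 5, at -0.16 (SE 0.09) and -0.13 (SE 0.11). Ifi27l2a, a small membrane protein gene, stood at 8.90, 12.5 and 6.38 CPM under vehicle and 4.34, 6.24 and 22.6 CPM under setanaxib. Setanaxib replicates 1 and 2 lay below the vehicle libraries and replicate 3 far above them, so the log2 fold change of 0.26 (SE 0.64) became -0.80 without setanaxib replicate 3, the library with the high atrial and lung transcripts.

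**Figure D4:**
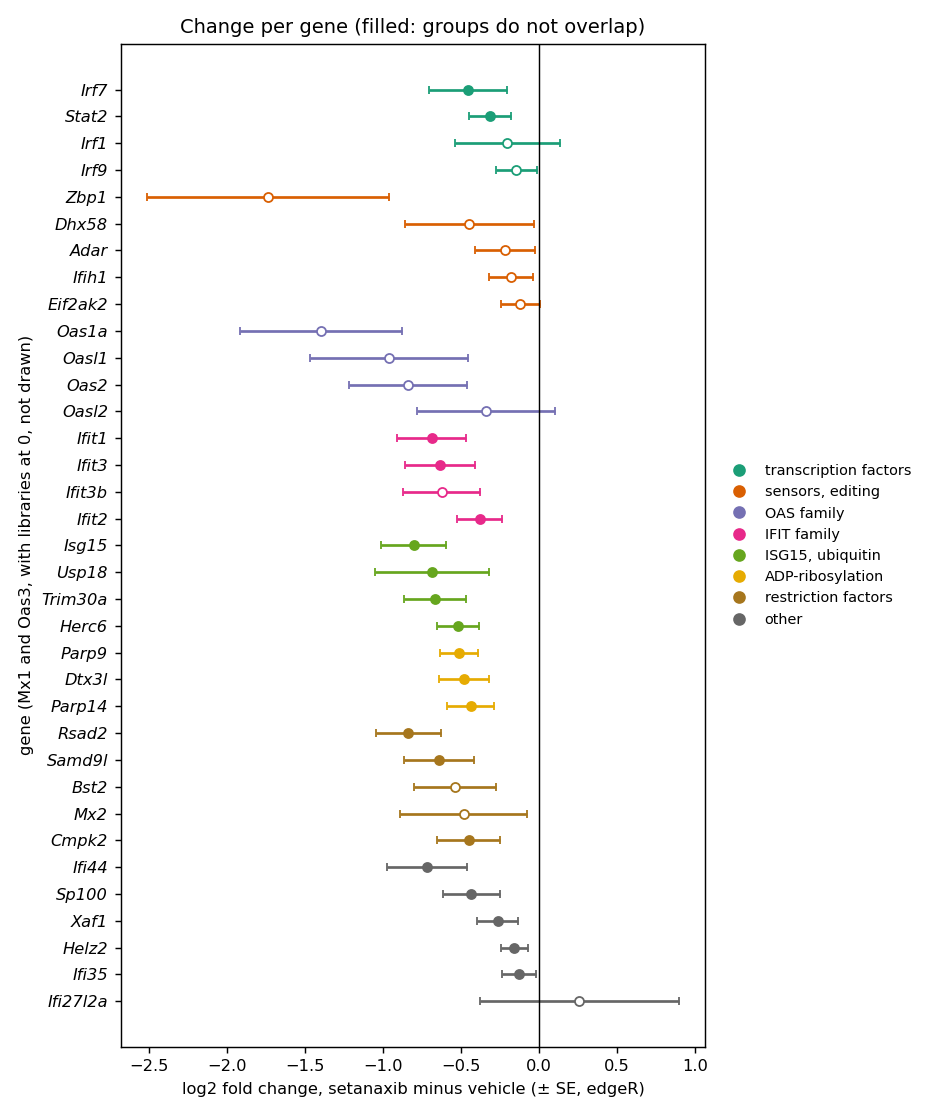
Log2 fold change, setanaxib minus vehicle, with its SE from edgeR (x axis) for each gene (y axis), coloured by role and filled where the groups do not overlap, without Mx1 and Oas3, which have libraries at 0. Only Ifi27l2a lies to the right of 0, and the IFIT, ISG15 and ADP-ribosylation genes have narrower error bars than most of the OAS family.

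Read by role, the median log2 fold change was -0.96 for the oligoadenylate synthetase family, where the spread between libraries was wide. It was -0.68 for the ISG15 and ubiquitin genes and -0.63 for the IFIT genes. For the restriction factors, Mx1 included, it was -0.59, and for the ADP-ribosylation genes -0.48. It was -0.26 for the transcription factors, -0.22 for the sensors and editing genes and -0.21 for the remaining 6. These medians describe 3 to 6 genes each, and differences between roles were not tested. Genes with an ISRE core in a matched promoter window had a median log2 fold change of -0.65 (12 genes, from -2.48 to -0.12), and those without one had -0.41 (16 genes, from -0.96 to -0.13). The ranges of these 2 sets overlapped, and their difference was not tested.

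Upstream of these genes, the 9 interferon genes looked up, Ifnb1 and Ifng among them, were listed at 0 in all 6 libraries. An exact 0 among estimated counts can be a failed estimate, so these zeros do not show that the transcripts were absent. In the receptor and JAK-STAT list 12 of 15 genes were lower, with a median log2 fold change of -0.08. At an unadjusted p under 0.05 in edgeR's test, 0 of the 15 were lower and 1 was higher. Over all 20472 genes tested, 961 were lower and 770 higher at that p. For the receptor chains, the log2 fold change was -0.20 (SE 0.12) in Ifnar1 and -0.08 (SE 0.11) in Ifnar2. Pias1, an inhibitor of STAT signalling, was the gene of that list at p under 0.05, and was higher with setanaxib at 46.4, 41.5 and 39.0 CPM than with vehicle at 34.0, 30.1 and 34.0 CPM (edgeR's adjusted p = 0.442).

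Among 23 genes of nucleic acid sensing, 17 were lower and 6 were lower at an unadjusted p under 0.05 in edgeR's test, with a median log2 fold change of -0.17. Tmem173, which encodes the DNA-pathway adaptor STING, stood at 6.64, 9.48 and 8.03 CPM under vehicle and 2.88, 4.48 and 5.29 CPM under setanaxib. Mavs, the adaptor of the RNA sensors, measured 66.0, 65.2 and 62.1 CPM in the vehicle libraries against 42.5, 57.1 and 39.3 CPM after setanaxib. Neither overlapped between groups, with log2 fold changes of -0.93 (SE 0.26, edgeR's adjusted p = 0.442) and -0.48 (SE 0.15, edgeR's adjusted p = 0.490). A wider list of 63 interferon-stimulated genes outside the 37 had 59 tested, of which 55 were lower. Of these, 17 were without overlap and 12 at an unadjusted p under 0.05, and the list's median log2 fold change was -0.33. Over all genes tested, 48.4% were lower, 9.46% without overlap and 4.69% at that p. Ifi203, a nuclear member of the DNA-binding p200 family, stood at 30.7, 26.8 and 28.8 CPM under vehicle and 9.53, 20.6 and 13.2 CPM under setanaxib. Its relative Ifi213 had a log2 fold change of -1.23 (SE 0.33) and Slfn5 one of -0.36 (SE 0.10). None of the genes on these lists passed edgeR's test after adjustment. DESeq2 called 2 of the wider list, Ifi203 and Slfn5, beside 1.45% of all genes called lower.

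**Figure D5:**
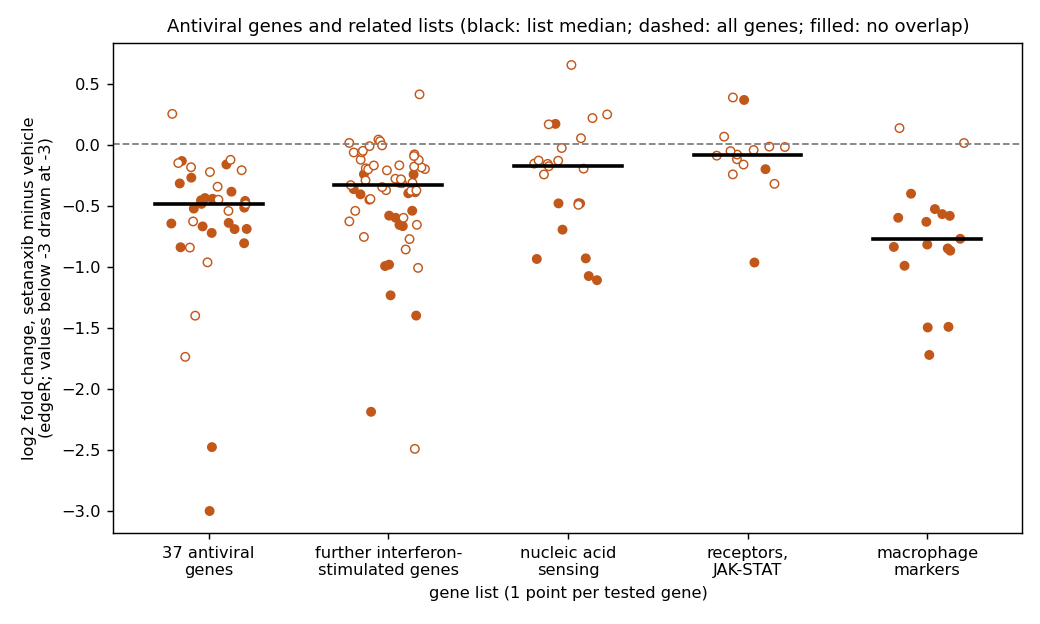
Log2 fold change, setanaxib minus vehicle (y axis, edgeR, values below -3 drawn at -3), of each tested gene of 5 lists (x axis), filled where the groups do not overlap, with black bars at list medians and a dashed line at the median of all genes. The medians are -0.48 for the 37 antiviral genes, -0.33 for further interferon-stimulated genes, -0.17 for nucleic acid sensing, -0.08 for receptors and JAK-STAT and -0.77 for macrophage markers.

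Levels can be compared between genes only per length, here as vehicle mean CPM per kilobase of exon, with lengths from GENCODE M21. On that scale Ifi27l2a was highest at 19.99, followed by Bst2 at 4.99, Ifi35 at 4.75, Helz2 at 4.15 and Parp14 at 3.85. Mx1 at 0.114, Oas3 at 0.166 and Mx2 at 0.273 were lowest. The genes with the lowest levels include both that were listed at 0 in setanaxib libraries. Sequence shared with other genes touched 4 of the 37 in at least 10% of their exonic windows, namely Oas1a (40.9%, with Oas1g), Ifit3, Ifit3b and Herc6 (10.3%, with Gm45193). The value of Oas1a is uncertain for that reason, and Oas1g itself had a log2 fold change of -1.40 (SE 0.44).

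Libraries held 110803307 to 154003318 estimated counts, with 21136 to 22253 genes above 0 and 20.5% to 29.96% of counts from the mitochondrial genome. Dmd, which encodes dystrophin, was at 124 to 140 CPM with vehicle and 108 to 178 CPM with setanaxib, and Utrn at 73.7 to 85.7 and 60.8 to 106 CPM. Both groups carry both mutations, so these levels do not check the group labels. Nox4, the target of the drug, was at 1.82 to 5.99 CPM with vehicle and 1.06 to 3.07 CPM with setanaxib, with overlapping groups, and its transcript level does not measure inhibition of the enzyme.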

How the data were processed

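Heart RNA of Mdx/Utrn dKO mice was sequenced in 6 libraries after TRIzol extraction, with 1 µg per library and paired reads of 150 bases, per the labels' protocols. The authors deposited estimated counts per gene, made from reads and left unscaled between libraries, which were already whole numbers. The genome build GRCm39 and the tools DESeq2 1.42.0, featureCounts 2.0.1, STAR 2.5.4b and FastQC 0.11.9 are named, per the submitters' processing notes, without their roles. RNA selection and strand setting are not given in the sources used here. Per the file headers, names have the form StringTie's count script writes. Raw counts had been planned for, and the count tests were not changed for the estimates.

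Genes were kept with edgeR (4.0.16) filterByExpr at a minimum count of 10, normalised with TMM (trimmed mean of M values, factors 0.892 to 1.19) and tested with the quasi-likelihood F test, two-sided, with Benjamini-Hochberg adjustment over 20472 genes at a threshold of 0.05. CPM values use the TMM-scaled totals. Standard errors were derived from the F statistic. DESeq2 (1.42.0), limma-voom (limma 3.58.1), other scalings and filters, and leaving out each library were alternatives, run in R 4.3.3. The scripts were tested on simulated data. The 37 genes, their roles and all lists were chosen with earlier results of these data known. Every one of the 37 is named. All 6 values are printed for the 16 of lowest edgeR p, for genes at 0 in a whole group and for those against the main direction, and those of Stat2, Irf7, Zbp1, Oas2, Oas3 and Usp18 were added after their values were seen. Of each other list, the 4 genes of lowest p and its defining genes could be named. Cd3e, Nkg7, Ms4a1, Cd79b and Oas1g were named after their values were seen. Promoter sequences and neighbours come from RefSeq (GRCm38.p6) and exon lengths and overlaps from GENCODE M21 (GRCm38). No pair of libraries agreed within sampling noise (chi-square over degrees of freedom at least 40.2). One gene of the pathway lists is not reported here.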

Additional observations from a re-analysis of the deposited data

How the results depend on the processing

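The 37 genes kept a median log2 fold change between -0.59 and -0.44 in all alternatives, and 35 of 37 were lower in every alternative that tests them. Scaling by total counts only left 8 genes at an unadjusted p under 0.05, against 15, beside 3.47% against 4.69% of all genes listed as lower. The DESeq2 test called 505 genes, 5 of them among the 37, and limma-voom called 0 genes, where edgeR called 1. Leaving out 1 library at a time gave 0 to 1 genes past edgeR's threshold, with 0 without any of the vehicle replicates 1, 2 or 3. Those fits listed 6 to 17 of the 37 as lower at an unadjusted p under 0.05, beside 2.7% to 7.91% of all genes. In DESeq2, leaving out 1 library at a time, an alternative added after the data were seen, gave 1 to 9 of the 37 past the threshold. It gave 1 without vehicle replicate 1 or 2 and 3 without vehicle replicate 3. Without setanaxib replicate 3 it gave 9, with Mx1 and Oas3, at 0 in the remaining setanaxib libraries, among them. In these settings, in that order, 0.808%, 0.766%, 1.02% and 4.08% of all genes were called lower. The log2 fold change of Ifi27l2a reversed in limma-voom (-0.070) and ranged from -0.80 to 0.63 when 1 library was left out, reversed without setanaxib replicate 3, and that of Irf1 ranged from -0.57 to 0.064, reversed without setanaxib replicate 1. The cause of these shifts was not tested. No paired analysis was possible because the replicate numbers used here follow the order of the records, and the numbers in the samples' own titles are shared by no 2 libraries. A filter of 1 CPM in 3 libraries left 32 of the 37, and the planned protein comparison was not run. What depth limits was not compared between genes, and the zeros of Mx1 and Oas3 stand beside vehicle libraries of 55 to 241 estimated counts.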
